A study of Mus musculus with 186 samples.

Results

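Zfp genes are named for the zinc fingers of their proteins, and this account follows the introns of 292 of them in mouse cortical neurons. The genes were chosen by level, as the symbols starting with Zfp that lie outside the study's activity-regulated capture panel and whose introns averaged at least 2 RPM (reads scaled to a common library total) over the 24 deposited columns of total RNA. For a symbol with several transcripts the one with the highest mean was taken. They are 292 of the 384 Zfp symbols outside the panel, and the other 92 lay below the limit. The whole intron table holds 27962 transcripts of 18528 symbols.

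Most mouse Zfp genes encode proteins with arrays of C2H2 zinc fingers, small folds in which a pair of cysteines and a pair of histidines hold a zinc ion and which read DNA. In the largest class a KRAB domain next to the fingers recruits the corepressor Trim28, which brings in the histone methyltransferase Setdb1 and silences retroelements and other loci. Many of these genes arose by local duplication and sit in runs along a chromosome, while other Zfp proteins act in neural development, in RNA metabolism or in the reading of imprints. Reads over introns come mostly from transcripts that have not been spliced, so they follow newly made RNA more closely than reads over exons do.

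The cells were primary cortical neurons from CD1 mouse embryos, grown for about a week and given U0126, which inhibits MEK, the kinase that activates ERK, or DMSO as vehicle. With either drug, cultures had sustained activity for 20 or 60 min, brief activity sampled at 20 or 60 min, or no stimulation, and the comparisons ask how the response depends on the pattern of activity and on MEK. Each activated group had 2 replicates, and each unstimulated group had 2 replicates of 2 cultures from one dissection, which were averaged. How activity was evoked is not described in the labels, which name no other difference between the groups.

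Summed over the transcripts of the intron table, the libraries held between 10486281 and 25945718 reads, and 1 RPM stood for 10.8 to 26.9 reads. A read shared by several transcripts of a gene may count more than once in these sums. The deposited column of vehicle brief 60 min replicate 2 was identical to that of U0126 sustained 60 min replicate 2, so both were left out and these 2 groups kept 1 replicate, which was assumed to vary like the others. Whether replicates 1 and 2 came from separate animals is not stated, so p-values measure only the spread between these replicates. Replicates with the same number deviated together in every pair of groups, so the counts of each comparison are given both without and with a block for the replicate number. The block takes out the difference between replicates 1 and 2 that the groups share. The 6 activity-regulated genes Fos, Fosb, Npas4, Nr4a1, Egr1 and Homer1 were all called higher after 60 min of sustained activity, with a median log2 fold change of 6.31 with vehicle. Summed markers of 8 neuronal genes reached 3280 to 3876 RPM after 60 min of sustained activity and 2958 to 3813 RPM without stimulation, both with vehicle. Those of 5 astrocyte genes reached 308 to 456 RPM against 356 to 470 RPM, those of the oligodendrocyte lineage 62.9 to 133 RPM against 72.6 to 143 RPM, and those of dividing progenitors 87.0 to 254 RPM against 101 to 232 RPM. Markers of microglia (4.69 to 5.06 RPM against 4.39 to 4.90 RPM) and of endothelium (at most 1.92 RPM) were near the floor. None of these markers was called without the block. With it 2 of the 5 astrocyte genes (Slc1a2 and Aqp4) and 2 of the 4 oligodendrocyte-lineage genes tested (Olig2, log2 −1.03, and Sox10, log2 −0.93) were lower and 1 of the 8 neuronal genes (Snap25, log2 0.59) higher, and their part in the results was not tested.

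The members' levels differed widely. Zfp451, whose human counterpart is a SUMO ligase, averaged 368 RPM and Zfp638, an RNA-binding nuclear protein, 354 RPM, followed by Zfp266 (82.2 RPM), Zfp644 (81.4 RPM), Zfp462 (80.2 RPM) and Zfp532 (78.5 RPM). Per kilobase of intron the order changed: Zfp451 stood at 7.50 RPM per kb, Zfp638 at 5.19, Zfp266 at 4.10, Zfp644 at 1.09, Zfp532 at 0.757 and Zfp462 at 0.641. The median member averaged 10.4 RPM, 150 members reached 10 RPM, 18 reached 50 RPM, and 65 lay between 2 and 5 RPM. The members just above the limit were Zfp457 (2.06 RPM), Zfp964 (2.03 RPM) and Zfp553 (2.01 RPM), and the Zfp genes just below it were Zfp472 (1.99 RPM), Zfp273 (1.98 RPM) and Zfp300 (1.97 RPM). In bulk samples fewer cells of a type and less RNA per cell cannot be told apart.

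After 60 min of sustained activity with vehicle, the intron signal of the Zfp genes was lower than in unstimulated neurons, and many members passed the test. Their summed signal was 4801 and 4600 RPM in the sustained libraries, against 5479 to 5666 RPM in the 4 unstimulated libraries, and these did not overlap. In limma, with Benjamini-Hochberg adjustment over 21513 transcripts, 81 members (27.7%) were called lower, where 4.7% of all transcripts were, and 5 members (1.71%) were called higher, where 3.36% of all transcripts were. Among the 11415 symbols that also reach 2 RPM, 5.58% were called lower. The median log2 fold change was −0.42 over the members and −0.09 over all transcripts, and 228 members (78.1%) were lower in both replicate pairs, where 48.4% of all transcripts were. With the replicate block 167 members were called lower and 18 higher, where 19% and 9.03% of all transcripts and, for the lower calls, 22.3% of symbols at 2 RPM or more were. All 86 members called without the block were called with it.

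Leaving out 1 replicate without the block sets a single replicate against the mean of 2, and the part of the replicate difference was not tested. The count without the block changed in such fits. It was 28 or 24 lower members without vehicle unstimulated replicate 1 or 2, and 45 or 28 without vehicle sustained 60 min replicate 1 or 2. After centring each library on its median it was 49 lower and 6 higher. Here and in later paragraphs the shares of all transcripts called in such fits are not given. These counts therefore do not set the members against all transcripts.

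**Figure D1:**
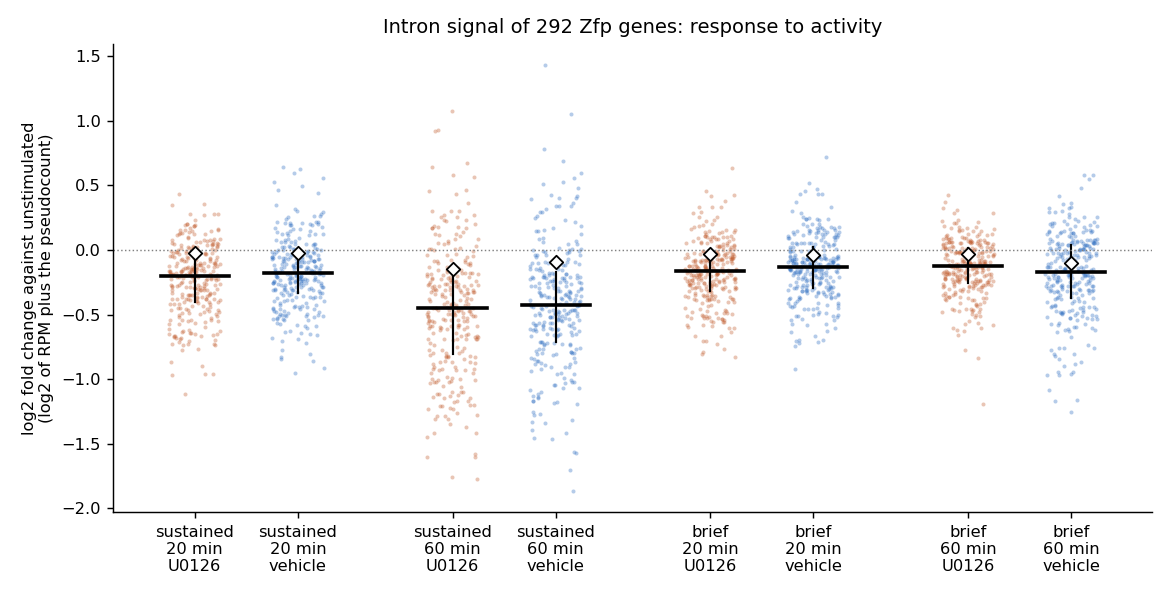
Log2 fold change of each of the 292 Zfp genes (points) against unstimulated neurons of the same drug, for sustained and brief activity at 20 and 60 min with U0126 and with vehicle. Thick lines are medians, thin lines the middle 50% of members, and diamonds the median of all 21513 transcripts. The members' median is lowest at sustained 60 min (−0.45 with U0126 and −0.42 with vehicle), and lies below the diamond in all 8 groups.

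The 81 members called lower fell by a median of 45.1%, and 29 of them had a log2 fold change below −1. Zfp109 had 0.735 and 0.962 RPM (13 and 19 reads) after 60 min of sustained activity, against 3.42 to 4.25 RPM (51 to 84 reads) in unstimulated vehicle cultures. Both sustained libraries lay below every unstimulated one, and its log2 fold change was −1.86 ± 0.19 (SE; adjusted p = 0.000431, limma). Zfp457 had 0.735 and 0.709 RPM in sustained libraries, against 2.50 to 3.45 RPM in unstimulated ones, a log2 fold change of −1.71 ± 0.28 (adjusted p = 0.00581, limma). Its groups did not overlap either, at 13 and 14 reads against 30 to 83. Zfp786 had 2.32 and 2.03 RPM, against 5.60 to 7.51 RPM without stimulation (log2 −1.57 ± 0.28, adjusted p = 0.00929, limma), and its locus overlaps that of Zfp398 in the RefSeq annotation. Zfp709 had 0.848 and 1.87 RPM, against 3.08 to 4.99 RPM (log2 −1.57 ± 0.31, adjusted p = 0.0145, limma). Zfp128 had 3.05 and 3.04 RPM, against 7.99 to 10.5 RPM (log2 −1.46 ± 0.19, adjusted p = 0.00185, limma). In all 5 genes the sustained libraries lay below the lowest unstimulated library. The 5 were picked from these same libraries for their falls, so this separation is no separate support. The share of all members with such a separation was not counted.

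Of the 5 members called higher, Zfp184 changed most. It had 24.6 and 18.4 RPM after 60 min of sustained activity, against 5.66 to 10.2 RPM in unstimulated vehicle cultures, with no overlap (log2 1.43 ± 0.23, adjusted p = 0.00548, limma). Zfp948 had 57.1 and 57.5 RPM, against 26.6 to 28.6 RPM (log2 1.06 ± 0.09, adjusted p = 0.000213, limma). Its sustained libraries differed by less than 1 RPM. Zfp655 had 21.1 and 26.9 RPM, against 11.5 to 15.6 RPM (log2 0.78 ± 0.19, adjusted p = 0.0331, limma). Zfp335, a component of histone methyltransferase complexes that is needed for neural progenitors, had 29.9 and 25.2 RPM, against 14.8 to 19.9 RPM (log2 0.60 ± 0.15, adjusted p = 0.032, limma). Zfp622, a factor in the maturation of the large ribosomal subunit, had 40.6 and 42.5 RPM, against 25.8 to 29.2 RPM (log2 0.56 ± 0.09, adjusted p = 0.00658, limma). All 5 had both sustained libraries above every unstimulated library, but they were called from these same libraries, so this is no separate support. The loci of Zfp184, Zfp655 and Zfp335 each overlap 1 gene that does not code for protein in the RefSeq annotation, for Zfp335 an antisense RNA, and reads of the overlapping genes may not have been told apart.

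**Figure D2:**
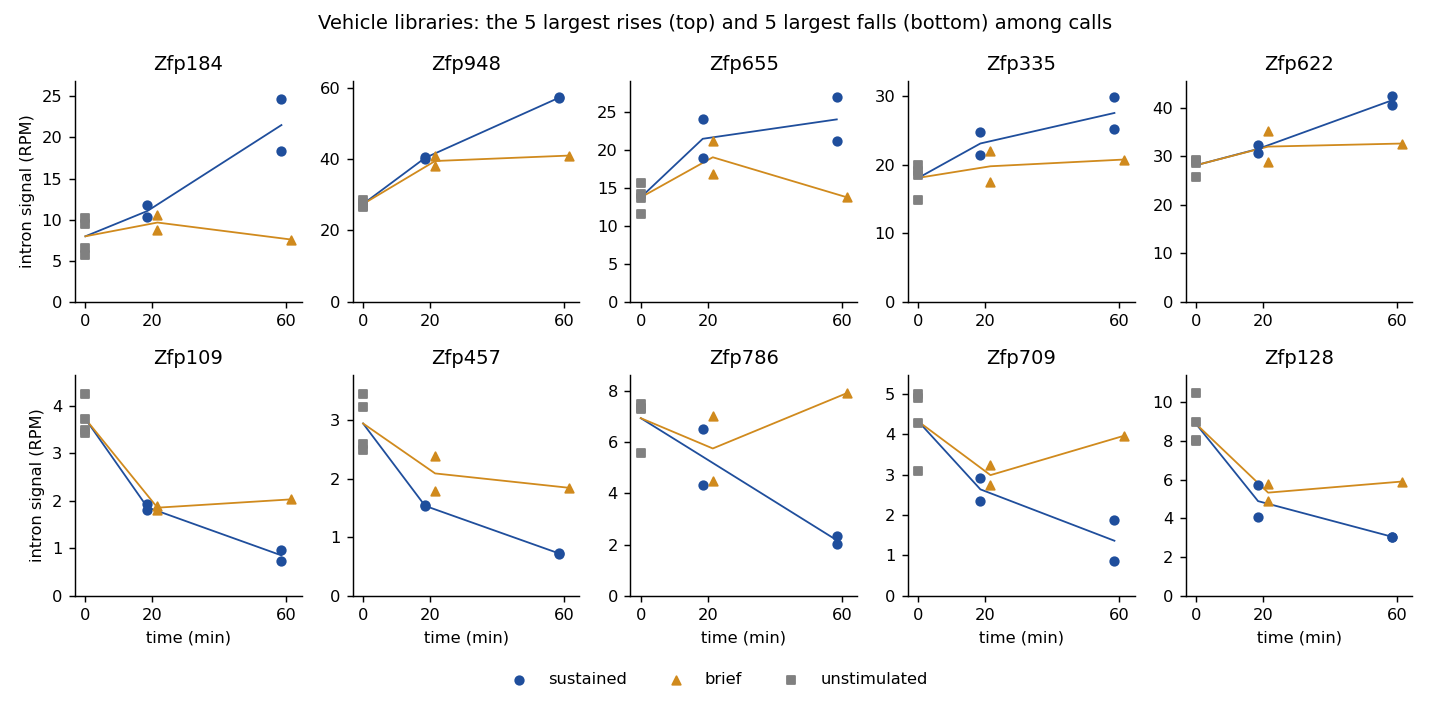
Intron signal in RPM of the 5 members with the largest rises (top row) and falls (bottom row) among calls at sustained 60 min, in single vehicle libraries (points) over time in min, with lines through the means. Blue circles are sustained activity, orange triangles brief activity and grey squares unstimulated cultures, and brief 60 min has 1 library. Sustained libraries at 60 min lie outside the unstimulated range in all 10 panels, such as Zfp948 at 57.1 and 57.5 RPM. The genes were picked from these same libraries.

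The sequence around the start of these genes was read from RefSeq windows of GRCm38.p6 that run from 250 bases before to 50 bases after the start, of which 243 of the 292 members had one. The windows below are shown because they hold the motifs counted in the next paragraph. The first 3 are of genes that fell and hold the ZNF143 letters, ACTACA followed after any 2 bases by TCCC, and the last 3 of genes that rose and hold TGACGTNA, a form of the cyclic AMP response element (CRE). Capitals mark these letters and CCGGAAG, the core of an ETS site, on either strand. Zfp457 holds all of the 3 motifs, and in Zfp655 the ETS core and the CRE-like letters adjoin. The windows lie at chr7:24237549-24237848 (minus strand, Zfp109), chr7:12880928-12881227 (plus strand, Zfp128), chr13:67306363-67306662 (minus strand, Zfp457), chr17:21566728-21567027 (plus strand, Zfp948), chr5:145231492-145231791 (plus strand, Zfp655) and chr2:164911701-164912000 (minus strand, Zfp335).
Zfp109: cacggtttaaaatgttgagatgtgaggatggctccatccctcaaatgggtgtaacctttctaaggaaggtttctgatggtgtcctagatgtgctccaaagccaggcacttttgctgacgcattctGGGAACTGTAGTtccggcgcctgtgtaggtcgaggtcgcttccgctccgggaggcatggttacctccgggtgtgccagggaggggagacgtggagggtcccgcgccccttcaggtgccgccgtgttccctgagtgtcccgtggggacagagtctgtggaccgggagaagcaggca
Zfp128: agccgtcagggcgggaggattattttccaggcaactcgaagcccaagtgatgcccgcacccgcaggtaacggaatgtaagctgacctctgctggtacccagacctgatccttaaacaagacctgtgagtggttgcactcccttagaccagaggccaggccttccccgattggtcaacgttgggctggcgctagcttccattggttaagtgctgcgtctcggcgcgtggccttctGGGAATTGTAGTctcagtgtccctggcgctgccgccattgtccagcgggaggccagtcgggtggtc
Zfp457: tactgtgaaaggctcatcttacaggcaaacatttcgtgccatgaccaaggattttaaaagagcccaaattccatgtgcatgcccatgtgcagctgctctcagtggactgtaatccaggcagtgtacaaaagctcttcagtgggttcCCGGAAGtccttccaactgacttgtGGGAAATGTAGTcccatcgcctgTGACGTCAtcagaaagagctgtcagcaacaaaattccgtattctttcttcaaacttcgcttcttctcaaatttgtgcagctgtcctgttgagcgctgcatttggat
Zfp948: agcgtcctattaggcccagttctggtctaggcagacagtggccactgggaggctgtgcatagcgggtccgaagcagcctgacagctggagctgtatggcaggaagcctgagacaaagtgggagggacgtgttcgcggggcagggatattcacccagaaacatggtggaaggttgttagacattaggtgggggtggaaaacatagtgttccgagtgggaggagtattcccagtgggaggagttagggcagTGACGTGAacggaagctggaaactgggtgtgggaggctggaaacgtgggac
Zfp655: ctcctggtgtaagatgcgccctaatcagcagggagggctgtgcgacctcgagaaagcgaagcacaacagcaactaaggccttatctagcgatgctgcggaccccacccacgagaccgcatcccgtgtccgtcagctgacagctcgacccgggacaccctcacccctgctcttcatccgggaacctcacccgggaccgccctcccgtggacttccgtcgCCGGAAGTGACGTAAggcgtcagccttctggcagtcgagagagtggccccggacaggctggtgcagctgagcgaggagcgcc
Zfp335: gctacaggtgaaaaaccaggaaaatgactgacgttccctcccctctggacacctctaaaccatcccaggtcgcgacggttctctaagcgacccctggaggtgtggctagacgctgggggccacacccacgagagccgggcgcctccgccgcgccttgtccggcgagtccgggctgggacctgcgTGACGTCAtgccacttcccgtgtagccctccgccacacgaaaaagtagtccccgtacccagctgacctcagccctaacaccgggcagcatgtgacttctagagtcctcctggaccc

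The ZNF143 letters, on either strand, stood in 44 of the 243 member windows (18.1%) and in 1.98% of the windows of 27025 genes. They stood in 18 of 72 windows of members that fell at sustained 60 min without the block, in 0 of 5 of those that rose, and, with the block, in 31 of 141 that fell, 0 of 16 that rose and 13 of 86 that were not called. The ETS core CCGGAAG stood in 54 member windows (22.2%) and in 9.12% of all windows, with 25 of 72 among members that fell and 2 of 5 among those that rose without the block. With the block it stood in 40 of 141 that fell, 4 of 16 that rose and 10 of 86 that were not called. TGACGTNA stood in 17 member windows (7%) and in 3.08% of all, with 3 of the 5 that rose and 4 of the 72 that fell without the block, and 3 of 16 that rose, 5 of 141 that fell and 9 of 86 not called with it. The CRE proper, TGACGTCA, which these letters include, stood in 8 member windows (3.29%) and in 1.88% of all. The AP-1 letters TGANTCA stood in 10 member windows (4.12%), against 7.93% of all, and the SRF site, the CArG box, in 4 (1.65%), against 1.57%. The member windows held a median of 16 CG dinucleotides, against 7 over all windows. The ZNF143 letters joined the search after they had been seen in windows of genes that fell, and a match is a string of letters, not a measured site.

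At 20 min of sustained activity the members' signal was also below that of unstimulated cultures, by less. The summed signal was 5288 and 5148 RPM, against 5479 to 5666 RPM, without overlap. The median log2 fold change was −0.18 over the members and −0.02 over all transcripts. Without the block 0 members were called, where 0.27% of all transcripts were, with 41 lower and 7 higher at an unadjusted p under 0.05 and 0 called by edgeR. With it 19 were lower and 4 higher, where 2.73% of all transcripts were called in either direction. The 81 members that fell by 60 min had a median of −0.36 at 20 min and of −0.87 at 60 min, and both values share the unstimulated libraries. Zfp109 was at 1.80 and 1.92 RPM at 20 min, a log2 fold change of −0.91 ± 0.19 that did not pass the test without the block (adjusted p = 0.158, limma).

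Between 20 and 60 min of sustained activity the signal went further down. Without the block 13 members were lower at 60 than at 20 min and 2 higher, where 1.02% and 1.71% of all transcripts were, and the median log2 difference was −0.25 over the members and −0.08 over all. With the block 86 were lower and 9 higher, where 11.3% and 7.16% of all transcripts were. Zfp518a had 5.03 and 5.62 RPM at 60 min, against 9.43 and 12.4 RPM at 20 min (log2 −0.99 ± 0.15, adjusted p = 0.0129, limma). At 20 min it was still near its unstimulated range of 9.80 to 13.6 RPM. Zfp442 had 1.13 and 0.658 RPM at 60 min, against 2.62 and 2.59 RPM at 20 min (log2 −1.35 ± 0.29, adjusted p = 0.0394, limma), and Zfp882 had 2.09 and 2.23 RPM, against 4.52 and 4.59 RPM (log2 −1.0 ± 0.19, adjusted p = 0.026, limma). Zfp109 (log2 −0.95) and Zfp53 (log2 −0.75) were the other large falls. The 2 rises were Zfp948 (log2 0.50 ± 0.09, adjusted p = 0.024, limma) and Zfp68, which had 62.9 and 59.8 RPM at 60 min, against 46.0 and 47.2 RPM at 20 min (log2 0.39 ± 0.08, adjusted p = 0.0277, limma). The counts without the block were 0 lower without vehicle sustained 20 min replicate 1 or sustained 60 min replicate 2, and 1 lower without sustained 20 min replicate 2 or sustained 60 min replicate 1. They were 6 to 8 lower without any other replicate but those of U0126 brief 60 min, which left 16.

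**Figure D3:**
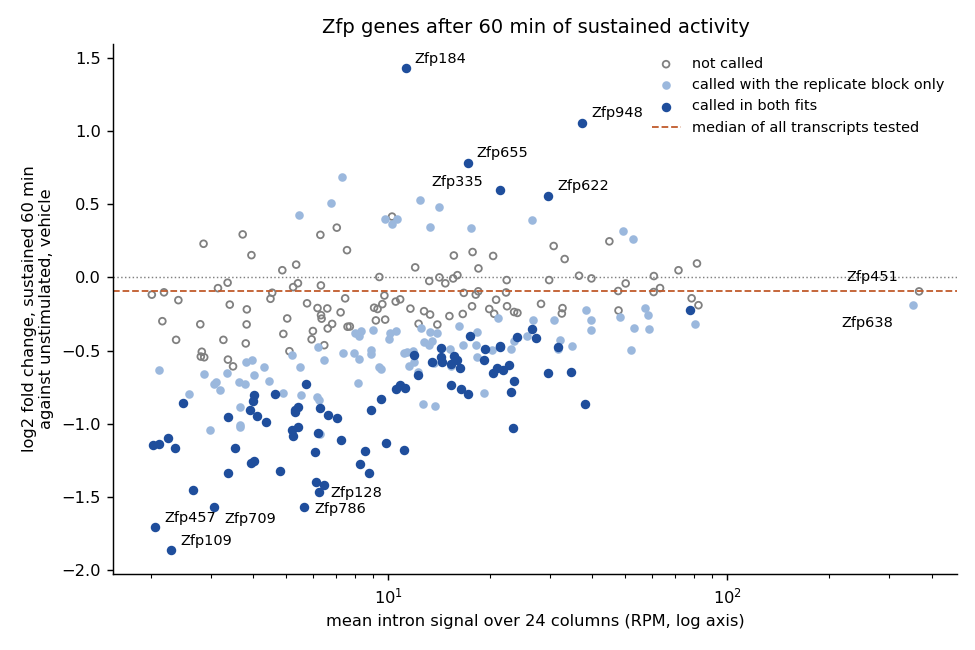
Log2 fold change at sustained 60 min with vehicle against the mean level in RPM (log axis) of the 292 Zfp genes. Dark points were called in both fits, light points with the replicate block only, open points in neither, and the dashed line is the median of all transcripts (−0.09). Members at a few RPM spread lower than those above 50 RPM, and Zfp184 and Zfp948 stand above the rest.

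After brief activity few members passed the test, and edgeR called 0 in each comparison of this paragraph. At 20 min the summed signal was 5361 and 5242 RPM, against 5479 to 5666 RPM, and the median log2 fold change was −0.13, against −0.04 over all transcripts. Without the block 0 members were called, where 0.112% of all transcripts were (33 lower and 4 higher at an unadjusted p under 0.05), and with it 8 were lower and 3 higher, where 2.66% of all were called. Zfp948 had 40.9 and 38.1 RPM after brief activity of 20 min, against 26.6 to 28.6 RPM without stimulation (log2 0.52 ± 0.09, adjusted p = 0.0985, limma). At 60 min the single library summed to 5285 RPM. There 0 members were called without the block, where 0% of all transcripts were (35 lower and 3 higher at an unadjusted p under 0.05), and 7 were lower and 1 higher with it, where 1.67% of all were called. Between brief 60 and 20 min 0 members were called without the block, where 0.00465% of transcripts were (10 lower and 6 higher at an unadjusted p under 0.05), and 2 were lower with it, where 0.93% of transcripts were called.

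The 2 patterns were set against each other at each time. At 20 min 0 members were called without the block, where 0% of transcripts were (4 lower and 2 higher at an unadjusted p under 0.05, and 0 called by edgeR), and 0 with it, where 0.0279% were. At 60 min 12 members were lower and 1 higher with sustained than with brief activity, where 0.395% and 1.5% of all transcripts were, and the median log2 difference was −0.25 over the members and 0.01 over all. With the block 62 were lower and 9 higher, where 4.45% and 5.66% of all transcripts were. Zfp943 had 11.1 RPM in both sustained libraries, against 24 RPM in the brief one (log2 −1.09 ± 0.13, adjusted p = 0.00245, limma). Zfp786 had 2.32 and 2.03 RPM with sustained activity, against 7.93 RPM with brief activity (log2 −1.76 ± 0.35, adjusted p = 0.0321, limma), and its brief library lay above all 4 unstimulated ones. Zfp882 (log2 −1.19), Zfp971 (log2 −1.06) and Zfp324 (log2 −1.01) were also lower with sustained activity, and Zfp184 was higher, at 24.6 and 18.4 RPM against 7.56 RPM (log2 1.46 ± 0.29, adjusted p = 0.0305, limma). Without the block, brief replicate 1 was set against the mean of both sustained replicates. With the block the median log2 difference at 60 min was −0.23 over the members and −0.04 over all transcripts. The calls at 60 min rest on 1 brief library. They numbered 2 or 3 without vehicle sustained 60 min replicate 1 or 2, 5 to 10 without any other replicate, and 0 when the shared column was kept as brief 60 min replicate 2.

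With U0126 many members were also lower after sustained activity. At sustained 60 min the single U0126 library summed to 4664 RPM, against 5364 to 5794 RPM in unstimulated U0126 cultures. There 36 members were lower and 2 higher without the block, where 1.66% and 1.47% of all transcripts were, and 128 lower and 7 higher with it, where 13.2% and 6.11% of all were. The median log2 fold change was −0.45 over the members and −0.15 over all transcripts without the block. That fit sets replicate 1 against the mean of both unstimulated replicates. With the block the medians were −0.44 and −0.09. Zfp948 had 53.4 RPM, against 26.6 to 29.4 RPM (log2 0.93 ± 0.12, adjusted p = 0.00423, limma), and Zfp335 had 32.1 RPM, against 16.3 to 17.9 RPM (log2 0.92 ± 0.18, adjusted p = 0.0244, limma). These were the 2 rises. Zfp786 (log2 −1.77 ± 0.35, adjusted p = 0.026, limma), Zfp3 (log2 −1.75), Zfp53 (log2 −1.60), Zfp518a (log2 −1.60 ± 0.19, adjusted p = 0.00312, limma) and Zfp94 (log2 −1.58) were the largest falls. Zfp518a had 3.59 RPM, against 10.5 to 12.5 RPM in unstimulated U0126 cultures. The lower calls numbered 10 or 12 without U0126 unstimulated replicate 1 or 2, 24 to 28 without any other replicate but those of U0126 brief 60 min, which left 38, and 74 when the shared column was kept as U0126 sustained 60 min replicate 2.

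Of the 36 members that were lower with U0126, 30 (83.3%) were also lower with vehicle, which is 37.0% of the 81 lower there. With the block 114 were shared, 89.1% of the 128 with U0126 and 68.3% of the 167 with vehicle. All 81 members that fell with vehicle had a log2 fold change below 0 with U0126. The shares below 0 with U0126 were 84.6% of all members and 65.2% of all transcripts. The median of the 81 was −0.82 with U0126 and −0.87 with vehicle. The overlap of calls over all transcripts was not counted. Across the 292 members the log2 fold changes with U0126 and with vehicle had a Pearson r of 0.777 and a Spearman rho of 0.751, and the unstimulated cultures behind the 2 values are separate. At sustained 20 min with U0126 only Zfp397 was called without the block, where 0.0511% of all transcripts were, at 16.4 and 16.7 RPM against 23.1 to 28.2 RPM (log2 −0.65 ± 0.09, adjusted p = 0.046, limma). With vehicle its values were 16.9 and 16.1 RPM, against 21.4 to 25.1 RPM. Its locus overlaps that of Zscan30. With the block 31 members were lower and 2 higher there, where 4% of all transcripts were called. At brief 20 min with U0126 0 members were called without the block, where 0.0279% of transcripts were (42 lower and 6 higher at an unadjusted p under 0.05), and 14 were lower and 3 higher with it, where 4.12% were called. At brief 60 min the count was 0 without the block, where 0.00465% of transcripts were called (23 lower and 2 higher at an unadjusted p under 0.05), and 5 lower with it, where 0.925% were called.

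**Figure D4:**
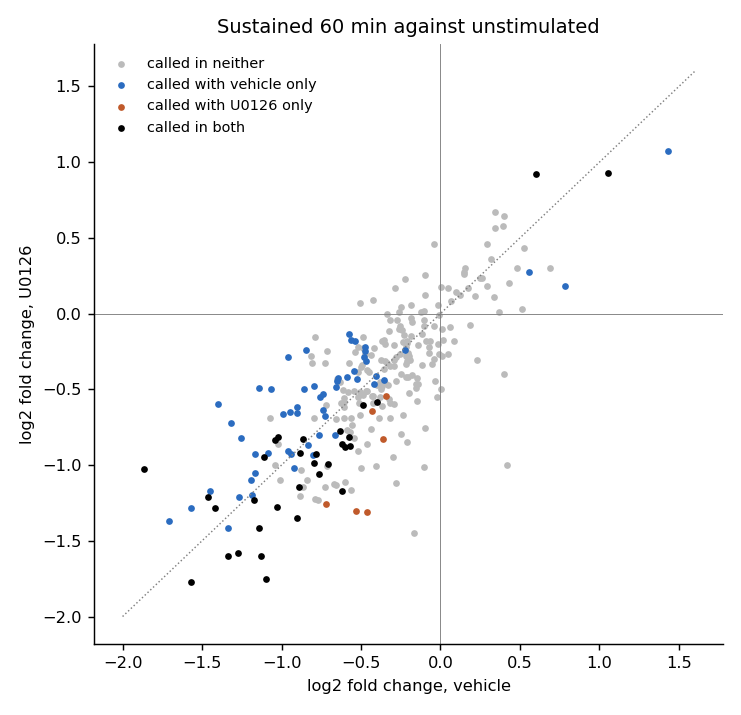
Log2 fold change at sustained 60 min against unstimulated cultures with U0126 (vertical axis) and with vehicle (horizontal axis) for the 292 Zfp genes, coloured by the calls without the block. The dotted line marks equal values. The 30 falls and 2 rises called in both lie on both sides of the line, with Zfp109 farthest above it (−1.02 with U0126 and −1.86 with vehicle), and the Pearson r is 0.777.

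The direct tests of U0126 against vehicle called no member. At sustained 20 min the 6 activity-regulated genes summed to 466 to 474 RPM with vehicle and 178 to 216 RPM with U0126. At sustained 60 min they summed to 716 to 843 RPM with vehicle and 652 RPM in the remaining U0126 library. How far MEK was inhibited at 60 min was not tested. In unstimulated cultures and at sustained 20, sustained 60, brief 20 and brief 60 min, 0 members were called without the block, where 0%, 0.0139%, 0%, 0.0232% and 0% of all transcripts were, and 0 with it, where 0.418%, 0.284%, 0.0604%, 0.297% and 0.232% were. At an unadjusted p under 0.05 without the block, 0, 4, 10, 8 and 5 members were lower and 0, 0, 11, 1 and 8 higher in these groups. The tests of whether the response to activity differs with U0126 also called 0 members at sustained 20, sustained 60, brief 20 and brief 60 min, where 0% of all transcripts were called without the block and 0.316%, 0.0558%, 0.349% and 0% with it. At an unadjusted p under 0.05 the last 4 tests had 2, 4, 3 and 4 lower and 0, 1, 0 and 2 higher members without the block, and edgeR's quasi-likelihood test on the recovered reads called 0 members in all 9 tests. The median difference at sustained 60 min was −0.03, with a median standard error of 0.29, so a difference of the size of the responses in single genes could be missed. Zfp109 had the highest value there, 0.84 ± 0.30 (adjusted p = 1.00, limma). It had 1.32 RPM with U0126, against 0.735 and 0.962 RPM with vehicle.

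Members with known roles were grouped by role, and their counts can be read against the 27.7% of all members lower and 1.71% higher without the block and the 57.2% and 6.16% with it. Of 18 members with roles in neural development and transcription, only Zfp335 was called at sustained 60 min with vehicle without the block, and with the block 11 were lower and 1 higher. Their median log2 fold change was −0.30, and 16 of 18 were below 0. Zfp608 had 29.9 and 56.2 RPM, against 40.4 to 80.1 RPM, where replicate 1 lay below replicate 2 in both groups (log2 −0.50, adjusted p = 0.726 without the block and 0.000441 with it, limma). Zfp462, which acts in neurodevelopment, had 61.3 and 80.6 RPM, against 71.0 to 105 RPM (log2 −0.32, adjusted p = 0.399 without the block and 0.0109 with it, limma). Zfp536 (log2 −0.59), Zfp521 (log2 −0.61), Zfp423 (log2 −0.56), Zfp804a (log2 −0.49), Zfp827 (log2 −0.47) and Zfp609 (log2 −0.44) were also lower with the block and not without it.

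Of 8 members that act on RNA, ribosomes or ubiquitin, Zfp622 rose without the block, and with it 2 were higher and 4 lower. The second rise with the block was Zfp598, the ubiquitin ligase that recognises collided ribosomes (log2 0.40, adjusted p = 0.0367 with the block and 0.148 without, limma). Zfp36l1, which promotes decay of messages with AU-rich elements, had a log2 fold change of −0.79 (adjusted p = 0.0125 with the block and 0.184 without, limma), and Zfp346, which binds double-stranded RNA, −0.40. Zfp106 (log2 −0.07) and Zfp326 (log2 −0.09) were called in neither fit. Of 5 members in imprinting or retroelement silencing, all with a KRAB pattern, none was called without the block. With it Zfp57, which keeps imprints methylated, was higher at 62.6 and 45.5 RPM, against 37.8 to 48.3 RPM (log2 0.32, adjusted p = 0.0281, limma), values that overlap, and Zfp932 was lower (log2 −0.58). Zfp445, which acts with Zfp57 on imprints, had a log2 fold change of −0.04, and Zfp809, which silences retroviruses, −0.20.

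The partners of the KRAB domain were measured in the same libraries. Of 27 corepressor and heterochromatin genes 2 were called higher and 2 lower at sustained 60 min with vehicle, and 4 and 4 with the block, with a median log2 fold change of −0.10. Of all transcripts 3.36% were higher and 4.7% lower without the block, and 9.03% and 19% with it. Trim28 stood at −0.03 ± 0.12 and Setdb1 at −0.11 ± 0.08 on the log2 scale, and neither was called. The largest change was in Suv39h2, a methyltransferase of histone H3, which rose by 2.08 ± 0.15 on the log2 scale (adjusted p = 7.0e-05, limma) with vehicle, and its log2 fold change was 2.05 with U0126. Morc3 was lower (log2 −0.43 ± 0.07, adjusted p = 0.00735, limma).

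Protein features were counted in the longest annotated protein of each gene, which was found for 291 members. A C2H2 pattern was found in 285 of them, with a median of 10 fingers and up to 36, and a pattern for the core of the KRAB domain in 130. At sustained 60 min with vehicle 44 of the 130 members with the KRAB pattern were called lower and 2 higher (80 and 7 with the block), with a median log2 fold change of −0.52. Of the 161 without it 37 were lower and 3 higher (86 and 11 with the block), with a median of −0.35. Over all transcripts 4.7% were lower, and 19% with the block. Without the block and up to 17228 bases of intron, 26 of 94 members with the pattern were lower (27.7%), against 29 of 99 without it (29.3%). Above that length 17 of 35 with it were lower (48.6%), against 8 of 62 without it (12.9%). Their medians were −0.53 and −0.30 and their levels 8.76 and 20.7 RPM. With the block 58 of 94 (61.7%) and 51 of 99 (51.5%) were lower up to that length. Above it 21 of 35 (60%) and 35 of 62 (56.5%) were lower with the block. The 207 members with 8 fingers or more had 66 lower calls (125 with the block) and a median of −0.48, and the 78 with 1 to 7 fingers had 14 (39 with the block) and a median of −0.26. The 115 members with both a KRAB pattern and 8 fingers or more had a median of −0.54, and the 69 with neither had −0.22. The Spearman rho with the number of fingers was −0.25 over 291 members, and that with the mean level was 0.40 over 292. The groups differ in level too, with a median of 8.12 RPM for the 115 and 17.2 RPM for the 69, and the part of level in the difference was not tested.

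**Figure D5:**
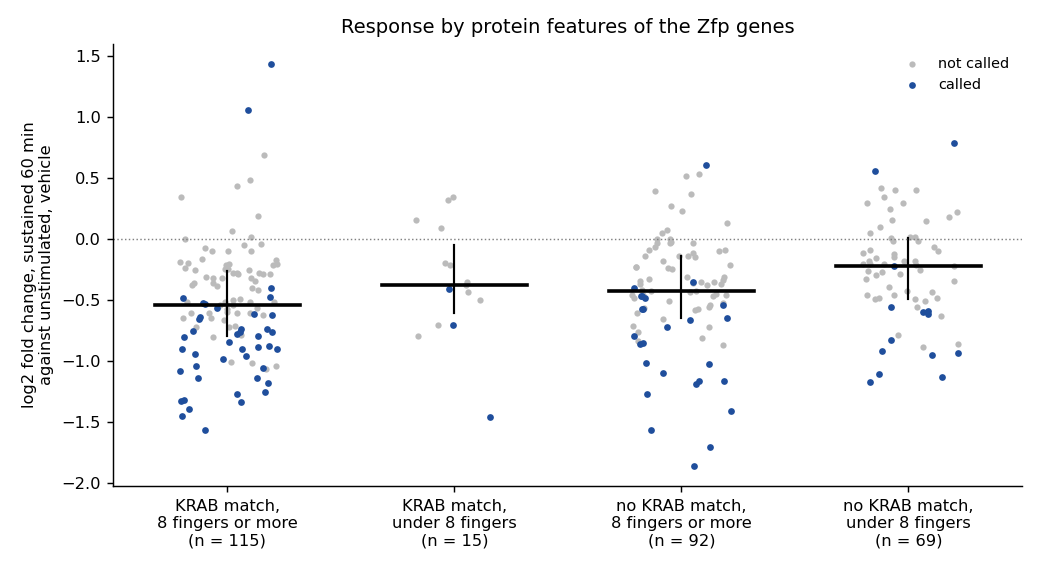
Log2 fold change at sustained 60 min with vehicle of the Zfp genes by protein features: a KRAB match or none, and 8 or more or under 8 C2H2 fingers. Points are genes, dark where called without the block, with medians as thick lines and the middle 50% as thin lines. The median is −0.54 in the first class (n = 115) and −0.22 in the last (n = 69).

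Intron length was matched for 290 members and ran from 1095 to 571317 bases, with a median of 12677 bases. In 3 classes split at 9844 and 17228 bases, 28, 27 and 25 members were called lower, from the shortest to the longest class. These are 28.9%, 28.1% and 25.8%, while of all symbols at 2 RPM or more within the same bounds 5.20%, 7.12% and 5.39% were. With the block 49, 60 and 56 members were lower, and 18.2%, 22.2% and 24% of the symbols. The Spearman rho with intron length was 0.06 over the members and −0.08 over 11336 symbols. By level, 34 of 98 members of the lowest class of 3 were lower, 22 of 96 of the middle and 25 of 98 of the highest, with medians of −0.71, −0.39 and −0.25. With the block these counts were 60, 55 and 52. All symbols were not counted by level class, so whether this trend is particular to the Zfp genes was not tested. The median level was 10.4 RPM over the members and 22.2 RPM over all symbols at 2 RPM or more.

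Of the 292 members, 135 lie next to another member in the RefSeq order of coding genes, in 43 runs. They had 46 lower calls (83 with the block), a median log2 fold change of −0.49 and a median level of 7.96 RPM. The 157 with no such neighbour had 35 lower calls (84 with the block), a median of −0.35 and a level of 13.5 RPM. Over all transcripts 4.7% were lower, and 19% with the block, and the part of level in the difference was not tested. The longest run, of 15 members on chromosome 7 including Zfp568 and Zfp146, had 0 lower calls without the block and 5 with it. A run of 7 on chromosome 6 that holds Zfp786, Zfp398, Zfp212 and Zfp282 had all 7 log2 fold changes below 0, with 4 lower calls without the block and 5 with it. The run of Zfp617, Zfp709, Zfp882 and Zfp961 on chromosome 8 had a median of −1.02, with 2 lower calls without the block and 4 with it. Reads can be split between near-identical copies, so the values of lettered pairs that lie side by side are uncertain: Zfp729a and Zfp729b had log2 fold changes of −0.56 and −0.57, and Zfp874a and Zfp874b −0.45 and −0.04. Zfp518a and Zfp518b, which lie on chromosomes 19 and 5, had −1.13 and −1.18. The spans of 28 members overlap another coding gene, and 8 of these were lower (15 with the block), against 73 of the other 264 (152 with the block), with a median of −0.42 in both.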

How the data were processed

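Total RNA was made into stranded libraries, per the labels' protocols. Per the submitters' processing notes, STAR, SAMtools and bedtools were used, without stated versions, and the genome build was mm9. The intron table was deposited in RPM, as the values show, since each column sums to between 963706 and 966590. Every value was a whole number of reads (100% whole, tolerance 0.05 reads), so reads could be recovered. Symbols of the capture panel came from another deposited table.

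limma 3.58.1 (R 4.3.3) was run with trend on log2(RPM + 0.248), with the 10th percentile of values above 0 as pseudocount, for 21513 transcripts whose mean reached it. All 10 groups were in 1 fit with 8 residual degrees of freedom, cultures of one dissection were averaged, and calls were made at an adjusted p under 0.05. Fold changes of low genes are understated on this scale. The main fit did not pair the samples, and standard errors and adjusted p-values come from it unless the block is named. Same-numbered replicates deviated together: their differences correlated at 0.842 to 0.905 over transcripts in all 28 pairs of groups. A fit with the block, which pairs samples by replicate number, is therefore given beside it. The labels do not say what the numbers stand for. edgeR 4.0.16 on the recovered reads, the block and the other settings are alternatives. The fit without the block was run on simulated data, where 200 transcripts changed by a log2 of 1 in 1 group. It called 88% of them and 3 unchanged transcripts. These data held no difference shared by same-numbered replicates, so they could not test that feature. Protein patterns came from GENCODE transcripts on GRCm38 and promoters from RefSeq (Python 3.11.15, pandas 2.3.3, matplotlib 3.10.9).

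Members and lists were chosen with earlier results of these data known. Named genes are, per comparison, the 5 largest rises and 5 largest falls among calls (where under 3 were called, the 3 highest and 3 lowest values, of which the text gives some), the 6 highest members, 3 on each side of the limit, and the role, marker and corepressor lists. Genes named in the paragraph on runs and copies were chosen after their values were seen.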

Additional observations from a re-analysis of the deposited data

Results flagged for a closer look

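Among the 4 unstimulated libraries of a drug, 1 library stood apart in 3 of 56 tests of gap against range, about the share that chance gives (1 in 20). Zfp335 was at 17.9 RPM in 1 unstimulated U0126 library, above the others at 16.3 to 16.6 RPM. Zfp786 was at 5.60 RPM in 1 unstimulated vehicle library, below the others at 7.33 to 7.51 RPM. Zfp94 was at 11.7 RPM in 1 unstimulated vehicle library, above the others at 11 to 11.1 RPM. A direct test without the block called 13 members (4.45%) lower and 2 (0.685%) higher at sustained 60 than at 20 min with vehicle. Of all transcripts 1.02% were called lower and 1.71% higher. Almost all of the lower calls were lost when any replicate of either group was left out.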

How the results depend on the processing

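No named value changed its direction under any alternative, and all 31 called values kept their call with the replicate block, with a smaller pseudocount and with a mean of at least 1 RPM. Of the 31, 21 lost it with the shared column kept as vehicle brief 60 min, 15 after median centring, 12 in edgeR, 9 with the first culture only, 1 to 4 under the other settings, and 2 to 17 without 1 replicate. Members called at sustained 60 min with vehicle numbered 86 as reported, 185 with the block, 55 after median centring, 57 with the shared column kept as vehicle brief 60 min, and 27 to 89 without 1 replicate. At sustained 60 min with U0126 they numbered 38 as reported, 135 with the block, 17 centred, 7 with the shared column as vehicle brief 60 min, 77 with it as U0126 sustained 60 min, 22 in edgeR, and 11 to 40 without 1 replicate. Between sustained 60 and 20 min they numbered 15 as reported, 95 with the block, 3 centred, 9 with the first culture only, 0 with the shared column as vehicle brief 60 min, 6 in edgeR, and 0 to 18 without 1 replicate. Between sustained and brief activity at 60 min they numbered 13 as reported, 71 with the block, 4 centred, 8 with the first culture only, 0 with the shared column as vehicle brief 60 min, 4 in edgeR, and 2 to 10 without 1 replicate. Sustained 20 min with vehicle had 0 as reported, 23 with the block, 3 without the trend, 2 with a mean of at least 1 RPM or with the shared column as U0126 sustained 60 min, and 0 to 2 without 1 replicate. Sustained 20 min with U0126 had 1 as reported, 33 with the block, and 0 centred, with the first culture only, in edgeR, with the shared column as vehicle brief 60 min and without any 1 replicate. With the block brief 20 min had 17 with U0126 and 11 with vehicle, brief 60 min had 5 with U0126 and 8 with vehicle, and brief 60 against 20 min had 2. Brief 20 min with vehicle had 1 without the trend and 0 to 1 without 1 replicate. The block ended no call, and the cause of the other changes was not tested. Shares of all transcripts called are given above for the fits without and with the block only. The other counts therefore do not set the members against all transcripts. Members rest on few reads (as low as 8 in a library), which limits single values of low genes.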

Other observations

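Other zinc-finger families, taken by symbol, were measured at sustained 60 min with vehicle beside the Zfp genes. Of all transcripts 64.2% had a log2 fold change below 0 there, 4.7% were called lower and 3.36% higher, and 19% and 9.03% with the replicate block. Of 36 Zbtb genes, which pair fingers with a BTB domain, 31 had a log2 fold change below 0, with a median of −0.33, and 5 were called lower and 3 higher (16 and 3 with the block). Of 11 Zkscan genes, which pair fingers with KRAB and SCAN domains, 10 were below 0, with a median of −0.78 and 4 lower calls (7 with the block). Of 9 Zscan genes 2 were called lower and 1 higher (2 and 2 with the block), with a median of −0.27. The 13 Klf genes had 3 higher and 0 lower calls and a median of −0.05, and with the block 5 higher and 5 lower. Among families with zinc-binding folds of other kinds, 20 of 21 Zdhhc genes, which encode palmitoyl transferases, were below 0 with a median of −0.25 and 1 lower call (6 with the block). Of 18 Zc3h genes 8 were below 0, with a median of 0.10 and 2 lower calls (5 lower and 4 higher with the block). Differences between families were not tested.

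The column deposited under both vehicle brief 60 min and U0126 sustained 60 min summed to 4619 RPM over the Zfp genes. The remaining vehicle brief 60 min library summed to 5285 RPM, and the remaining U0126 sustained 60 min library to 4664 RPM. In the shared column Fos, Fosb, Npas4 and Nr4a1 stood at 39.4, 19.8, 56.5 and 67.2 RPM. They stood at 11.5, 0.922, 3.04 and 4.98 RPM in the remaining brief library. The remaining sustained library had 65.6, 33.2, 81.0 and 103 RPM. Homer1 also lay between these libraries, and Egr1 was lowest in the shared column, at 0.366 RPM. Which label is right was not tested, and counts with this column kept under either label depend on it.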
